A study of Mus musculus with 16 samples.

Results

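Fibroblast and extracellular matrix genes were followed across macrophages sorted from the perigonadal fat of lean and obese mice. The set held 36 genes, and a gene was measured through probe sets that carry its symbol and no other. Of the 36, 35 had such a probe set, with 72 probe sets between them, among 18193 genes on the array; Fbn1, which encodes the microfibril protein fibrillin, had none and has no value here. Where a gene had several probe sets, the brightest stood for it. A gene was tested where at least 4 arrays had it brighter than their own median, which held for 11908 genes and for all 35 of these.

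RNA came from 4 groups of 4 samples, each amplified in 2 rounds and hybridised to its own Affymetrix Mouse Genome array. Lean mice were C57BL/6J Lep +/+ and obese mice were C57BL/6J Lep ob/ob, all aged 12 to 14 weeks and without any treatment named in the labels. Sorting used the macrophage antigen that Adgre1 encodes, CD11b and CD11c: FBC cells carried all 3, and FB cells the first and CD11b without CD11c. The cell type label of FBC samples gives CD11c an ambiguous sign; they were taken as CD11c positive from their description. FB and FBC cells were taken from 4 lean and 4 obese mice, and every obese mouse lacked leptin, so obesity and the absence of leptin cannot be told apart.

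Fibroblasts and preadipocytes of adipose tissue secrete fibrillar collagens, basement membrane collagens, small proteoglycans such as decorin, and the enzymes that crosslink collagen fibres. They carry surface proteins such as PDGFRα, CD34 and THY1, which are used to isolate them. Macrophages take up and break down matrix, and they make some matrix proteins themselves, fibronectin among them. In RNA of a sorted sample, fewer cells of a type and less RNA per cell cannot be told apart, and for the genes below, RNA made by the macrophages and RNA of stromal cells carried through the sort cannot be told apart either.

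The 250 bases before the start of 4 members are shown because Dpep1, Pdgfra and Cd34 fell furthest among the surface genes and Col1a2 is a chain of the main fibrillar collagen. They are RefSeq sequence of the mouse build GRCm38.p6, plus strand, 5′ to 3′, in lower case, with matches in capitals. Searched on either strand were the CCAAT box, the TATAAA form of the TATA box, GGGCGG as the core of SP1 sites, and CAGAC as the core of SMAD sites.
Dpep1, chr8:123185985-123186234: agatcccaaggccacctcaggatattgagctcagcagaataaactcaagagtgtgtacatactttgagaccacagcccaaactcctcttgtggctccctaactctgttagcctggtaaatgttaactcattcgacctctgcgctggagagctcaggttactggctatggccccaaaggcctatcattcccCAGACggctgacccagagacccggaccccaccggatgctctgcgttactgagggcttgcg
Pdgfra, chr5:75152001-75152250: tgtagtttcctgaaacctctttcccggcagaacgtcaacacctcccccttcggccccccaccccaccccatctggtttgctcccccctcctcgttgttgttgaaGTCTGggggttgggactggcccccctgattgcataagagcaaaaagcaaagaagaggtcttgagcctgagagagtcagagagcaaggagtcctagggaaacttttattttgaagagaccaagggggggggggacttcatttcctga
Cd34, chr1:194938571-194938820: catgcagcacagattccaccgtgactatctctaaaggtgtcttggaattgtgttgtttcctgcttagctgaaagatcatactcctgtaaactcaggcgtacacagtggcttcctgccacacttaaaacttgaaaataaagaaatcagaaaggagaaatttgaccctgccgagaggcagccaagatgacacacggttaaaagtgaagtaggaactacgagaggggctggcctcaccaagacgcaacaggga
Col1a2, chr6:4505368-4505617: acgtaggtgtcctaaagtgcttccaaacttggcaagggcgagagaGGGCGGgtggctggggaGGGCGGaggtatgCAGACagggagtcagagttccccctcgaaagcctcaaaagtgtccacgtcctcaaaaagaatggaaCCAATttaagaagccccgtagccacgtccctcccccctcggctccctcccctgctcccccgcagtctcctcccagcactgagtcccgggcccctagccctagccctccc
The Dpep1 window held 1 CAGAC, the Pdgfra window 1 CAGAC on the minus strand, the Cd34 window no match, and the Col1a2 window 2 GGGCGG, 1 CAGAC and 1 CCAAT. Longer windows, which also take in the first bases of the gene, were listed for 23 of the members, 28 windows in all. Only the 250 bases before the start were searched in each window. Within these bases CAGAC was in 57.1% of the member windows and in 42.2% of all 32851 mouse windows. GGGCGG was in 39.3% and 32.7%, CCAAT in 25.0% and 33.8%, and TATAAA in 14.3% and 12.4%. A match is a run of letters, not a measured site. Several members are next to one another in the genome: Col3a1 and Col5a2, Col6a2 and Col6a1, and Dcn and Lum are adjacent protein-coding genes. Col4a1 and Col4a2 start back to back on opposite strands, and their 300-base windows share 78 bases.

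All levels below are log2(intensity + 16) after quantile normalization, on a scale where every array has a median of 5.87. Differences are log2 differences with their standard error from limma, and a gene was called where its Benjamini-Hochberg adjusted p over the 11908 genes was under 0.05. Markers fitted the sort labels: Csf1r, the receptor of the main macrophage growth factor, lay between 13.36 and 13.68 on all 16 arrays, and Itgax, which encodes CD11c, was higher in FBC than in FB cells by 1.49 in lean mice (adjusted p = 0.0213) and by 2.21 in obese mice (adjusted p = 1.11e-04). Itgax was nevertheless above the array median on the FB arrays, at 8.55 or more. Of the other 2 sort markers, Adgre1 ran from 11.94 to 13.69 and Itgam, which encodes CD11b, from 6.84 to 8.39. Adgre1 was higher in obese than in lean FBC cells, by 1.08 (adjusted p = 0.00668). RNA integrity was uneven. Actin control probe sets gave a 3′ signal 53.3 times the 5′ signal on array 4 of lean FB cells. The ratio was 48.0 for array 4 of lean FBC and 45.0 for array 4 of obese FB cells, while the other 13 arrays had 1.15 to 10.9. GAPDH control probe sets gave 26.5, 41.5 and 28.0 on these same arrays, but also 28.1 on obese FBC array 3, whose actin ratio was 4.69. The remaining arrays had GAPDH ratios of 3.05 to 14.2. Obese FBC array 3 is kept wherever the 3 arrays of high actin ratio are left out below.

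The members formed a block that was high on some arrays and low on others of the same group. Centred on each gene's mean, the mean level of the 35 genes was 0.91, 1.15, 1.15 and -0.82 on lean FB arrays 1 to 4. It was 0.25, 0.55, 0.64 and -1.17 on the lean FBC arrays. It was -0.86, -0.68, -0.75 and -0.75 on the obese FB arrays, and -0.86, 0.66, 0.90 and -0.34 on the obese FBC arrays. The obese FB arrays lay closest together. Within the lean groups array 4 was low, and within obese FBC cells arrays 2 and 3 were high and arrays 1 and 4 low. The 2 low lean arrays have a high actin ratio, but so does obese FB array 4, whose mean was that of its group, and obese FBC array 1 was low with a ratio of 1.80. The part of RNA integrity in these levels was not tested.

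**Figure D1:**
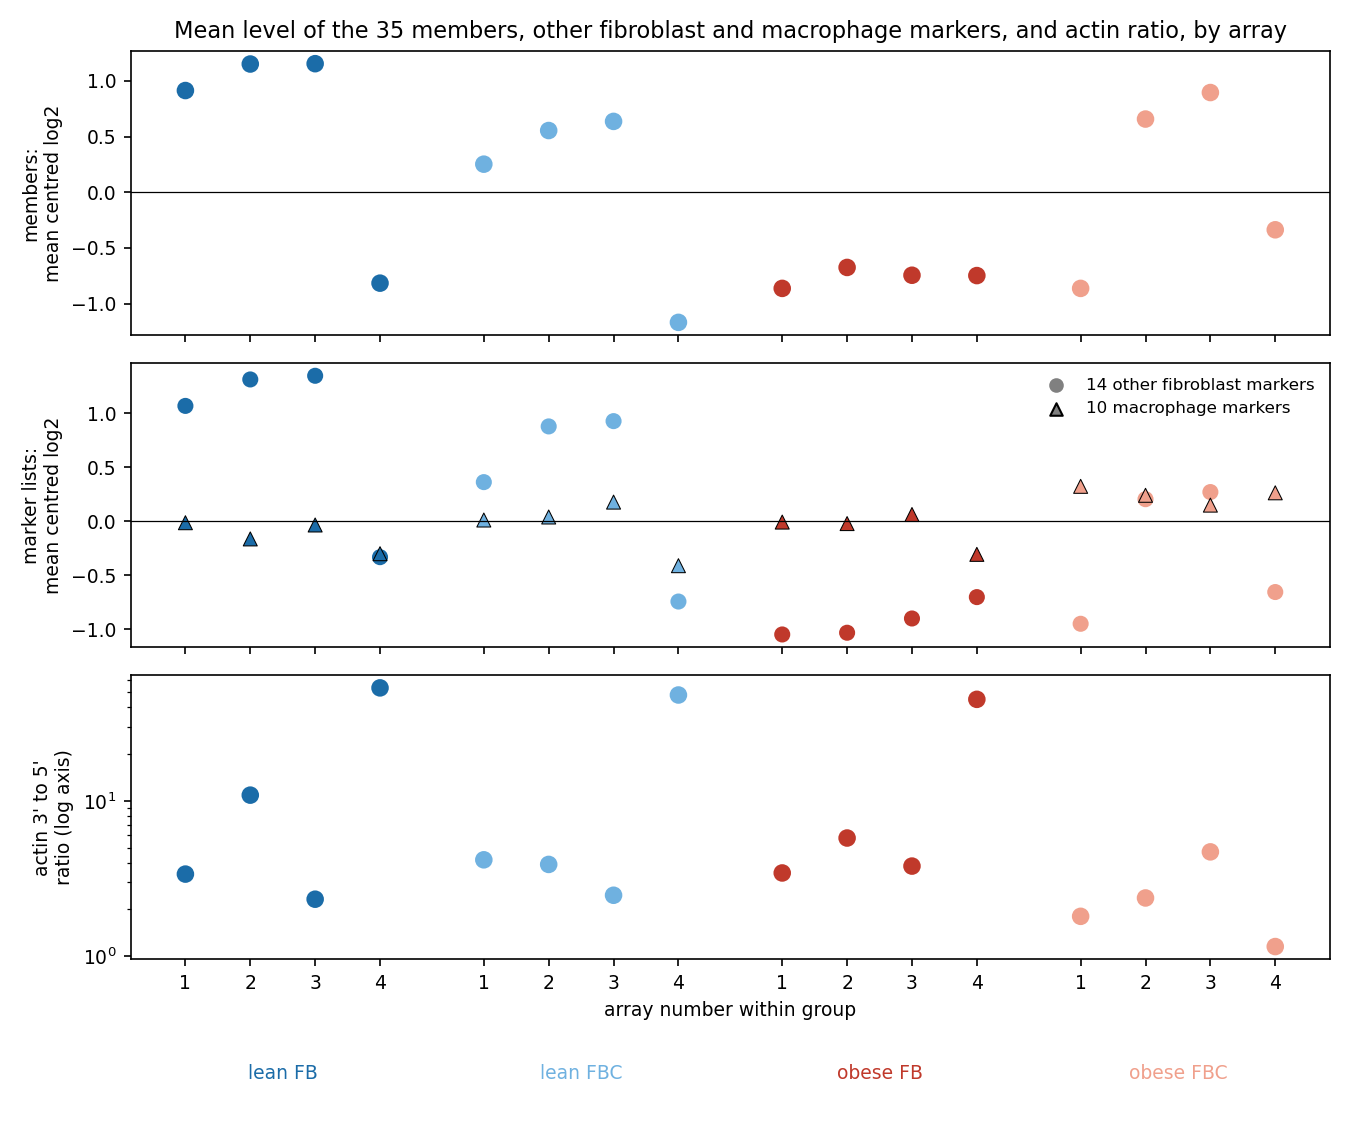
Each point is 1 of 16 arrays, by group and array number. The top panel plots the mean centred log2 level of the 35 genes, the middle panel that of 14 other fibroblast markers (circles) and 10 macrophage markers (triangles), and the bottom panel the actin 3′ to 5′ ratio on a log axis. The circles run from -1.05 to 1.35 and the triangles from -0.41 to 0.32. Array 4 is the lowest of each lean group for members and circles, but the lean FB array 4 circle, at -0.33, is above every obese FB circle, while its member mean of -0.82 lies within the obese FB range.

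Single genes followed the same order. Lean FB array 4 was the lowest of its group for 33 of the 35 genes, against 39.8% of all genes tested. Lean FBC array 4 was the lowest for 30 (31.6% of all genes), and obese FBC array 1 for 32 (30.3%). The highest of the 16 arrays was lean FB array 2 for 10 members and obese FBC array 3 for 10. The median SD of a member over the 4 arrays was 1.05 in lean FB, 0.92 in lean FBC and 0.94 in obese FBC cells, against 0.30, 0.32 and 0.29 for all genes tested. In obese FB cells it was 0.29, against 0.31 for all genes. The set was thus steady in obese FB cells and spread widely in the other 3 groups.

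**Figure D2:**
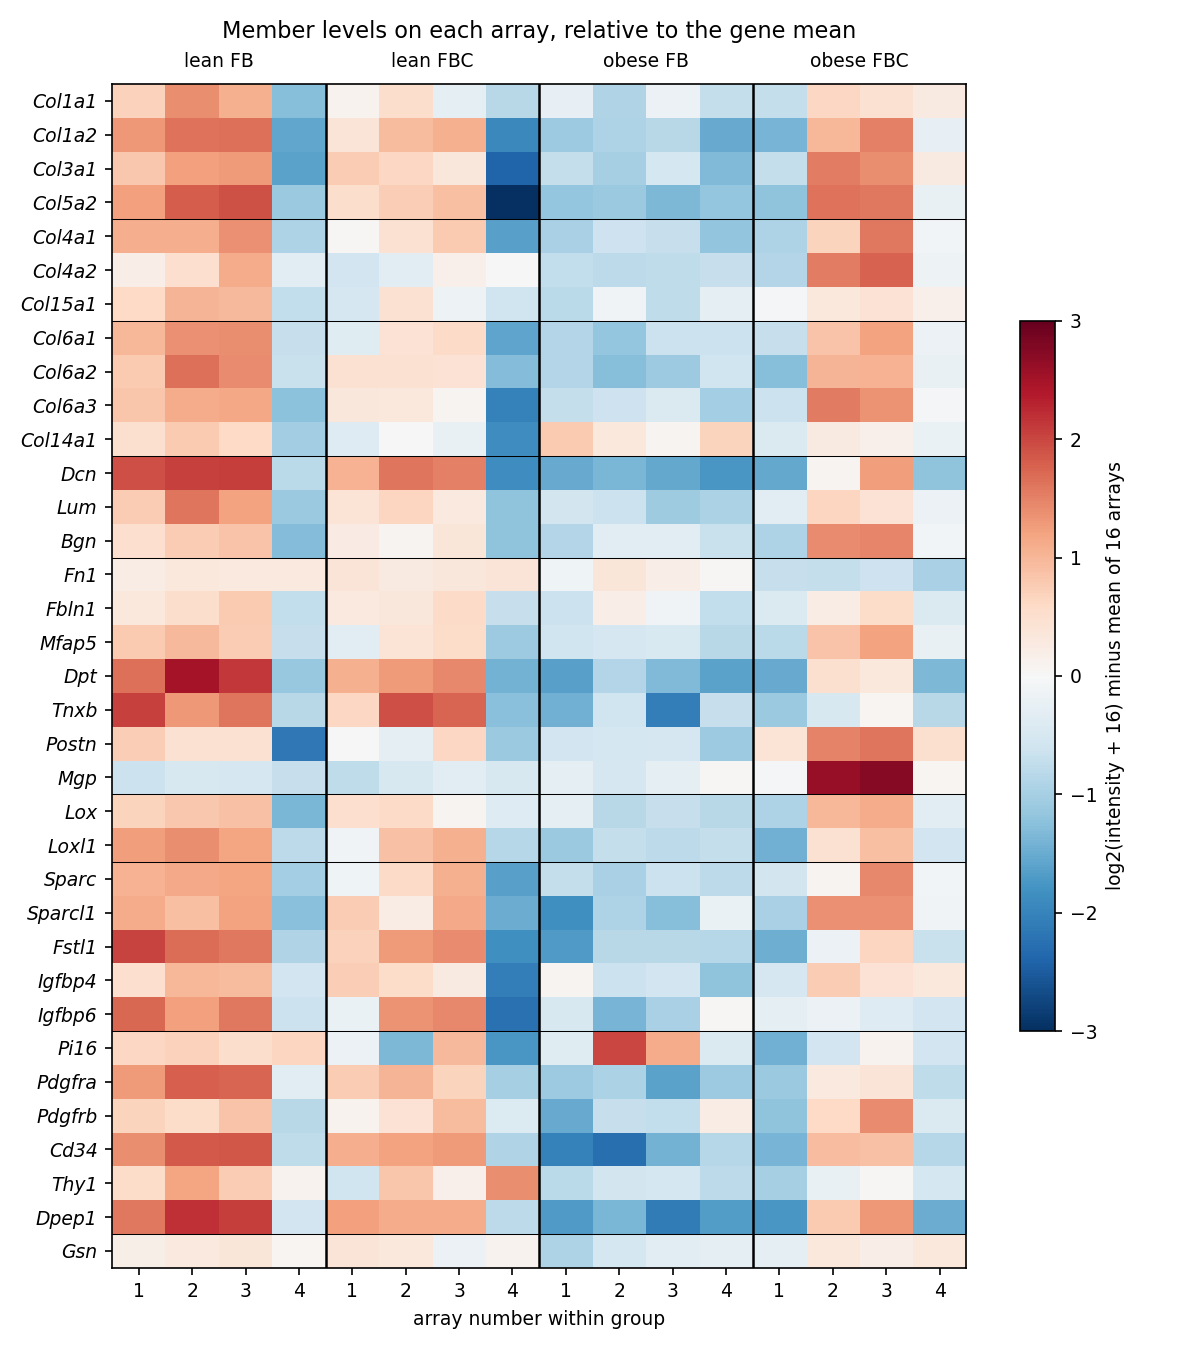
Level of each of the 35 genes (rows) on each of the 16 arrays (columns, in 4 groups of 4), as log2(intensity + 16) minus the gene's mean over the arrays. Red is above and blue below the mean, and colours end at 3 and -3. Columns 4 of lean FB and of lean FBC are blue beside 3 red columns, all 4 obese FB columns are mostly blue, and Fn1, Gsn, Mgp and Pi16 depart from the block.

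Obese FB cells were set against lean FB cells first. Dpep1, Dcn, Cd34, Dpt, Pdgfra, Thy1 and Gsn fell, 7 of 35 genes, and none rose; of all genes tested, 4.07% fell and 1.81% rose. The median difference was -1.33 over the 35 genes and 0.03 over all genes tested, with 33 of the 35 negative. An unadjusted p under 0.05 was reached by 22 members, and by 2403 of the 11908 genes tested. The groups did not overlap for 8 members, all lower in obese mice (6.32% of all genes tested): Gsn, Col5a2, Col4a2, Dcn, Pdgfra, Cd34, Thy1 and Dpep1.

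Of 6 surface or receptor genes, 4 fell. Dpep1, a membrane dipeptidase found on adipose progenitors, was at 10.54, 11.14, 11.03 and 8.38 in lean FB cells and at 7.26, 7.59, 6.84 and 7.28 in obese FB cells. Every lean array was above every obese array, array 4 by the least. The difference was -3.03 ± 0.69 (adjusted p = 0.0158), an 8.16-fold lower signal. Its second probe set moved by -1.93 (adjusted p = 0.0540 with all probe sets tested singly). Cd34, a sialomucin of progenitor and endothelial cells, was at 8.07, 8.51, 8.54 and 5.90 in lean FB and at 4.64, 4.41, 5.26 and 5.80 in obese FB cells. The obese values are all below the array median, near background, so the size of the change, -2.73 ± 0.65 (adjusted p = 0.0196), is imprecise, and lean array 4 was 0.10 above the highest obese array.

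Pdgfra, the PDGF receptor that marks adipose fibroblasts, was at 8.84, 9.35, 9.30 and 7.22 in lean FB and 6.46, 6.62, 5.95 and 6.46 in obese FB cells. The groups were apart, and the difference was -2.30 ± 0.49 (adjusted p = 0.0104), the lowest adjusted p of the set. Its second tested probe set differed by -0.55 (adjusted p = 0.217 with all probe sets tested singly). Thy1, a surface glycoprotein of fibroblasts and T cells, was at 6.92, 7.54, 7.14 and 6.47 against 5.55, 5.80, 5.84 and 5.58. It fell by 1.32 (SE 0.35, adjusted p = 0.0337), and since all 4 obese values are below the array median, the size is imprecise. Pdgfrb, the receptor shared with pericytes, had means of 7.62 in lean and 6.61 in obese FB cells and did not pass (adjusted p = 0.289). Pi16, a peptidase inhibitor on adventitial fibroblasts, did not move with them, at -0.05 ± 0.56 (adjusted p = 0.974): its obese FB arrays ran from 6.18 to 8.62 while its lean FB arrays lay within 7.16 to 7.30.

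**Figure D3:**
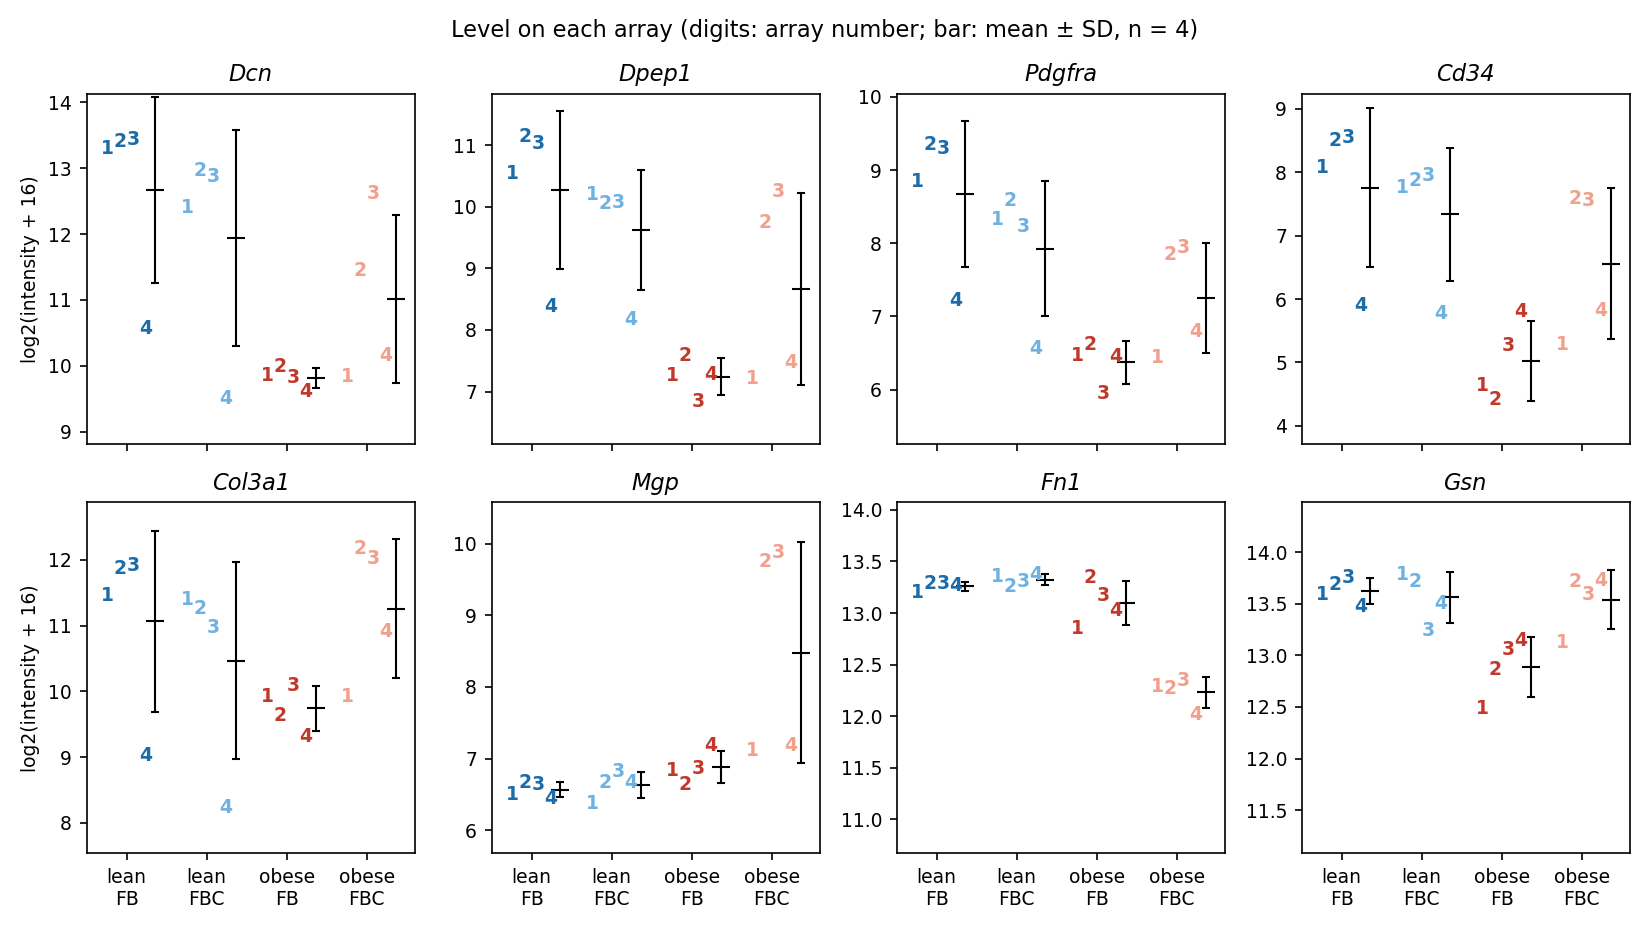
Level of 8 genes on every array, in log2(intensity + 16), with digits for the array number and bars for the mean ± SD of 4 arrays in each group. Array 4 is lowest in both lean groups for Dcn, Dpep1, Pdgfra, Cd34 and Col3a1. Mgp is high on obese FBC arrays 2 and 3 alone, and Fn1 is low on all 4 obese FBC arrays.

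Of the small proteoglycans, which coat collagen fibrils, decorin (Dcn) fell. It was at 13.30, 13.40, 13.44 and 10.56 in lean FB cells and at 9.85, 9.98, 9.82 and 9.61 in obese FB cells. In deposited intensity this was 9028, 12937, 9790 and 1528 against 751 to 1005. The difference was -2.86 ± 0.77 (adjusted p = 0.0371). Its other probe set averaged 5.48, below the array median, and was not tested; with both averaged, the difference was -1.42 and the call was lost (adjusted p = 0.0859). Lumican (Lum) differed by -1.42 ± 0.48 (adjusted p = 0.0976) and biglycan (Bgn) by -0.74 ± 0.54 (adjusted p = 0.479).

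Of 7 measured matrix glycoproteins, 1 fell. Dermatopontin (Dpt), which binds decorin and collagen, was at 10.19, 11.02, 10.66 and 7.39 in lean FB and at 6.89, 7.64, 7.22 and 6.91 in obese FB cells. Lean array 4 lay among the obese arrays, and the difference was -2.65 ± 0.74 (adjusted p = 0.0435). Tenascin X (Tnxb) missed the threshold at -2.23 ± 0.65 (adjusted p = 0.0531). Its obese FB values, 4.29 to 5.75, are all below the array median, near background, so the size is imprecise. Fibronectin (Fn1), at 13.20, 13.28, 13.28 and 13.27 against 12.85, 13.34, 13.17 and 13.02, differed by -0.16 ± 0.14 (adjusted p = 0.585), with an SD of 0.04 in lean FB cells. Lean FB array 4, low for Dcn and Dpt, was not low for Fn1. Matrix Gla protein (Mgp), an inhibitor of calcification, differed by 0.32 ± 0.49 and periostin (Postn) by -0.55 ± 0.52, and neither passed.

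No collagen passed the test in FB cells. Differences of the 4 fibrillar collagen chains ran from -2.15 for Col5a2 to -0.98 for Col1a1. Col1a1 was at 7.69, 8.41, 8.08 and 5.74 in lean FB and 6.75, 6.11, 6.84 and 6.28 in obese FB cells. Col3a1 was at 11.45, 11.86, 11.92 and 9.03 against 9.93, 9.63, 10.10 and 9.31. For both, lean arrays 1 to 3 were above all obese arrays and lean array 4 below all of them, which gave -0.98 ± 0.47 (adjusted p = 0.250) and -1.32 ± 0.71 (adjusted p = 0.312). The basement membrane chains Col4a1, Col4a2 and Col15a1 differed by -1.52, -1.12 and -0.96. The chains of collagen VI, Col6a1, Col6a2 and Col6a3, differed by -1.60, -1.75 and -1.17, with adjusted p between 0.0716 and 0.289. Col14a1, a fibril-associated collagen, stood apart with 0.25 ± 0.40: obese FB arrays were at 9.73, 9.28, 9.03 and 9.62, within the range of lean arrays 1 to 3 or just below it.

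The crosslinking enzymes Lox and Loxl1 differed by -0.90 ± 0.49 and -1.59 ± 0.54 (adjusted p = 0.315 and 0.0923). Among secreted regulators none of 5 passed. SPARC (Sparc), a collagen-binding protein, was at 9.70, 9.80, 9.85 and 7.64 against 7.94, 7.68, 8.01 and 7.87, a difference of -1.37 ± 0.56 (adjusted p = 0.169). Fstl1, Igfbp6, Sparcl1 and Igfbp4 differed by -2.16, -1.67, -1.55 and -1.05. Gelsolin (Gsn), an actin-severing protein that many cells make, fell by 0.74 (SE 0.19, adjusted p = 0.0305), from 13.59, 13.69, 13.76 and 13.47 to 12.49, 12.87, 13.06 and 13.14, with lean array 4 close to its group. The elastic fibre proteins Mfap5 and Fbln1 differed by -1.06 and -0.54 without passing.

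How many members were called turned on single arrays. Without lean FB array 4 the count was 25, and without lean FB array 1, 2 or 3 it was 2, 1 and 1; without obese FB array 1, 2, 3 or 4 it was 2, 2, 3 and 4. Over all genes the count moved as well, from 701 with every array to 1506 without lean FB array 4, to 397, 327 and 331 without lean FB array 1, 2 or 3, and to 511, 444, 402 and 774 without the obese ones. Without the 3 arrays of high actin ratio, 29 of 35 members fell and none rose, with a median of -1.83, where 10.2% of all genes tested fell and 7.22% rose. Pdgfra was called under all 20 alternatives (adjusted p from 4.32e-06 to 0.0462), with differences from -2.85 to -1.07, the smallest with its probe sets averaged. The calls of Dcn, Dpt, Cd34, Thy1 and Gsn each ended without lean FB array 1, 2 or 3, and that of Dpep1 without 2 or 3, with adjusted p up to 0.156 for Dpt. Those of Dcn, Dpt and Thy1 also ended without any 1 of the obese FB arrays, that of Gsn without obese FB array 1, 2 or 3, and that of Cd34 without 1 or 2.

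**Figure D4:**
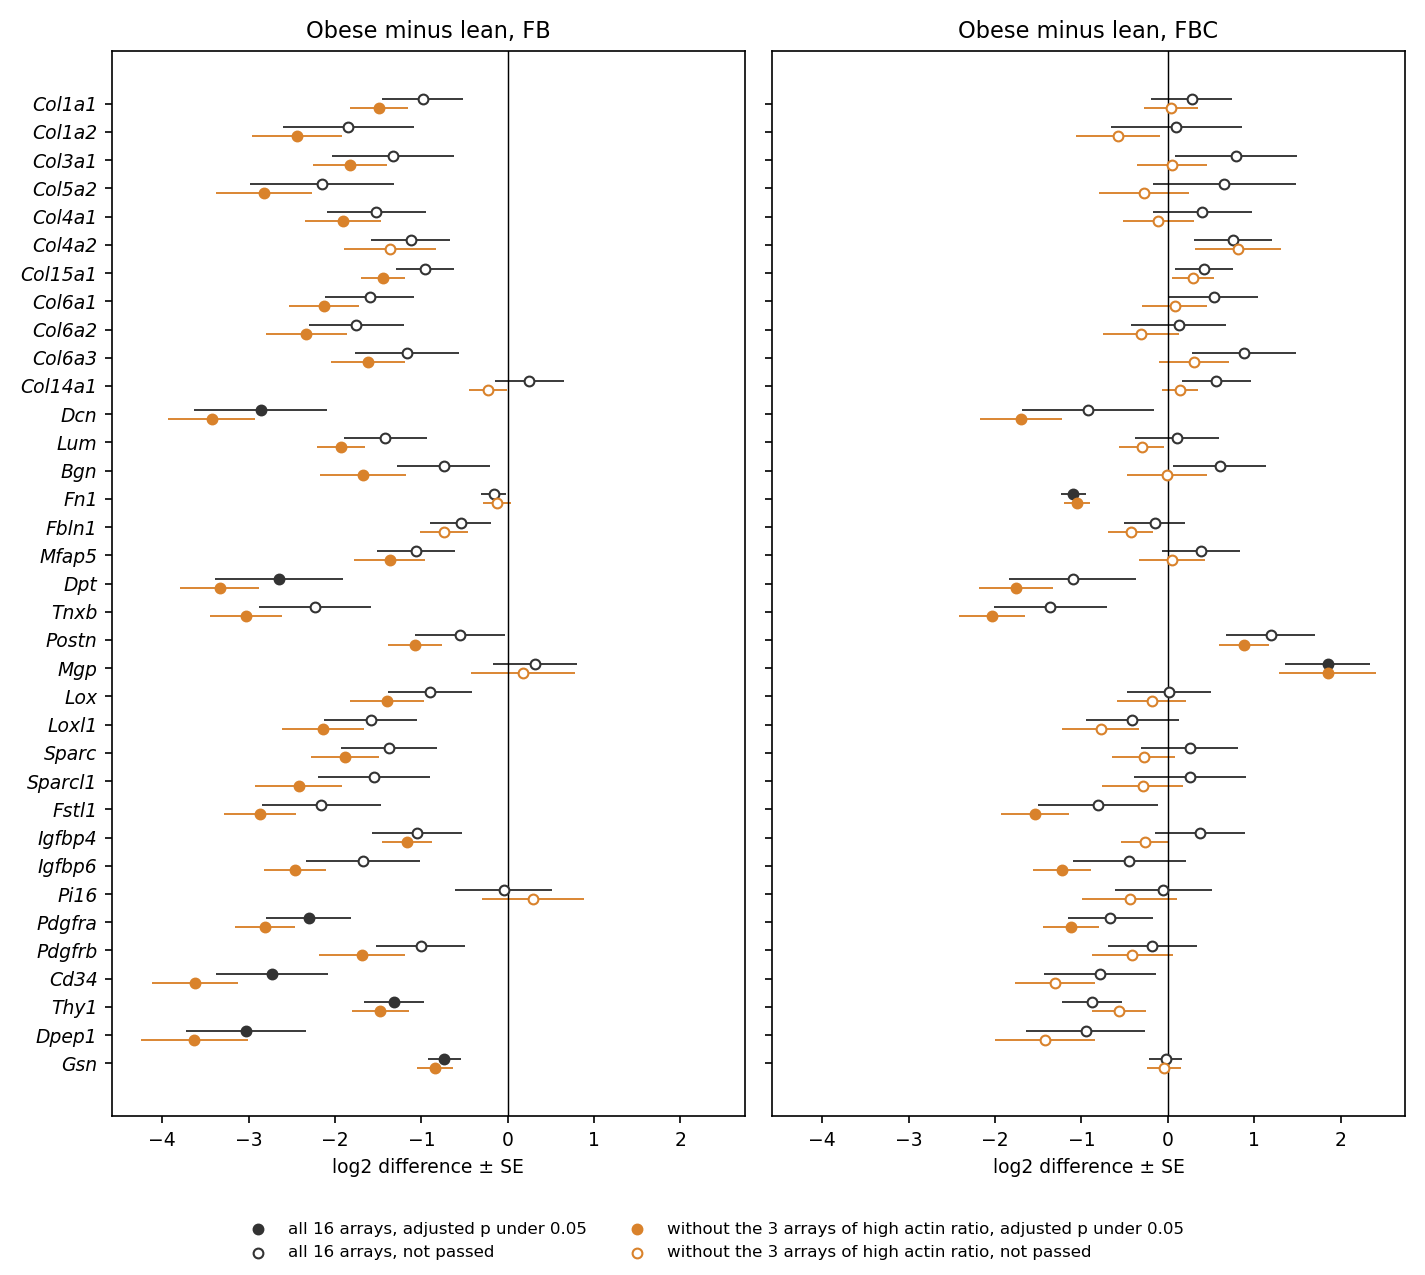
Obese minus lean difference of each of the 35 genes, as log2 ± SE from limma, in FB cells (left panel) and in FBC cells (right panel). Dark points use all 16 arrays, and orange points leave out the 3 arrays of high actin ratio. Filled points have an adjusted p under 0.05. Differences in FB cells lie mostly left of 0 in both colours, with 7 dark and 29 orange points filled. Differences in FBC cells lie on both sides of 0, with 2 dark and 9 orange points filled.

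Between obese and lean FBC cells few members passed. Mgp rose and Fn1 fell, 2 of 35 members, against 14.1% of all genes tested called either way; their groups did not overlap, as was so for 12.4% of all genes on the higher and 7.61% on the lower side. The median difference was 0.11 over the members and 0.08 over all genes tested, with 20 members positive and 15 negative. Fibronectin was at 13.36, 13.26, 13.31 and 13.37 in lean FBC cells and at 12.29, 12.27, 12.35 and 12.02 in obese FBC cells. All 4 obese arrays were below all lean arrays by more than the whole range of either group, on arrays where the block was high and where it was low. The difference was -1.09 ± 0.14 (adjusted p = 1.20e-04), 2.13-fold lower. It was called under all 20 alternatives (adjusted p from 3.91e-06 to 0.00250), and the second Fn1 probe set moved by -1.06 (adjusted p = 0.0109).

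Mgp was at 6.38, 6.66, 6.82 and 6.66 in lean FBC cells and at 7.11, 9.75, 9.88 and 7.19 in obese FBC cells. Arrays 2 and 3 carry the rise, and arrays 1 and 4 were above the lean arrays by little. The fitted difference was 1.85 ± 0.49 (adjusted p = 0.0191), and it no longer passed without array 2 (1.43, adjusted p = 0.0697), without array 3 (1.39, adjusted p = 0.0568) or with only the lean and obese FBC arrays fitted (adjusted p = 0.0706), in a range from 0.00468 to 0.0706 over 20 alternatives. Mgp was not above 7.19 on any of the other 14 arrays, including lean FB arrays 1 to 3 where the block was high. Postn, a matrix protein made in remodelling tissue, was at 8.13, 7.84, 8.74 and 7.03 in lean FBC and at 8.53, 9.61, 9.73 and 8.62 in obese FBC cells, with overlap and a difference of 1.19 ± 0.52 (adjusted p = 0.140).

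Surface and receptor genes did not pass in FBC cells. The 6 differences ran from -0.95 for Dpep1 to -0.06 for Pi16. Dpep1 was at 10.19, 10.05, 10.07 and 8.16 in lean FBC and at 7.21, 9.74, 10.26 and 7.47 in obese FBC cells, so the groups overlapped. Pdgfra was at 8.32, 8.59, 8.23 and 6.56 against 6.44, 7.84, 7.94 and 6.79. Cd34 was at 7.77, 7.87, 7.95 and 5.77 against 5.28, 7.58, 7.55 and 5.82. For these genes lean array 4 and obese arrays 1 and 4 were low and the other 5 arrays high. Thy1 was at 5.76, 7.20, 6.53 and 7.77 against 5.37, 6.14, 6.40 and 5.84; lean FBC array 4, low for the other surface genes, was the highest of all 16 for Thy1.

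No collagen passed in FBC cells either. The differences were positive with all arrays, but without the 3 arrays of high actin ratio those of Col1a2, Col5a2, Col4a1 and Col6a2 were -0.58, -0.27, -0.11 and -0.31. With all arrays, the 4 fibrillar chains ran from 0.10 to 0.79, the 3 basement membrane chains from 0.40 to 0.75, and the other 4 from 0.13 to 0.88. Col1a1 was at 7.10, 7.54, 6.73 and 6.18 in lean and 6.29, 7.62, 7.46 and 7.27 in obese FBC cells. Col3a1 was at 11.40, 11.26, 10.97 and 8.24 against 9.93, 12.17, 12.02 and 10.91. Obese array 1 was low and lean array 4 lowest for Col3a1, and the groups overlapped. Dcn, at 12.41, 12.96, 12.88 and 9.51 against 9.83, 11.44, 12.62 and 10.16, had a negative difference, -0.92 ± 0.77, and again lean array 4 and obese arrays 1 and 4 were low. Dpt, at 9.59, 9.82, 9.98 and 7.11 against 7.02, 9.02, 8.86 and 7.19, differed by -1.10 ± 0.74. Sparc, at 8.54, 9.24, 9.73 and 7.02 against 8.12, 8.74, 10.10 and 8.59, differed by 0.25 ± 0.56. None of these passed. Gsn, at 13.78, 13.72, 13.24 and 13.51 against 13.13, 13.71, 13.59 and 13.73, differed by -0.02 ± 0.19. Without the 3 arrays of high actin ratio, 7 members fell and 2 rose, against 9.39% and 12.4% of all genes tested. Those that fell were Dcn, Fn1, Dpt, Tnxb, Fstl1, Igfbp6 and Pdgfra, from -2.04 for Tnxb to -1.05 for Fn1. Mgp rose by 1.85 and Postn by 0.88, and no collagen passed. With all arrays Tnxb was at 5.23 and 5.51 on obese FBC arrays 1 and 4, below the array median, so its size is imprecise.

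FBC and FB cells were compared within lean mice. None of the 35 was called by limma, against 0.193% of all genes tested. Of the members 1 (Pi16, -1.20 ± 0.56) had an unadjusted p under 0.05, as did 976 of the 11908 genes tested. The members' median was -0.60, with 33 of 35 negative, and that of all genes was 0.00. The member mean given above was lower on the FBC than on the FB array of each of the 4 lean numbers, a description without a test. With array weights 3 members were called, where 1324 of all genes were. Without the 3 arrays of high actin ratio none was, against 0.103% of all genes. With the array number as a block none was, against 51 of all genes. Fn1 differed by 0.07 ± 0.14.

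Within obese mice, the FBC minus FB differences of 32 of 35 members were positive and the median was 0.88, against 0.08 over all genes tested. Gsn rose by 0.65 (SE 0.19, adjusted p = 0.0440) and Fn1 fell by 0.87 (SE 0.14, adjusted p = 0.00158), 2 members called where 8.39% of all genes were. With all probe sets tested singly, this Gsn probe set did not pass (adjusted p = 0.0577). Its 4 other tested probe sets differed by 1.34 (adjusted p = 0.0377), and by 0.497, 0.535 and -0.398 without passing. The second Fn1 probe set differed by -0.73 (adjusted p = 0.0887). Fn1 was called under all 21 alternatives (adjusted p from 5.09e-05 to 0.0146), whereas Gsn lost its call under 12 of 21 (adjusted p up to 0.422, without quantile normalization), among them leaving out obese FB array 1, 2 or 3 or obese FBC array 2, 3 or 4. The groups did not overlap for 4 members that were higher in FBC cells, Col15a1, Lum, Postn and Sparc (11% of all genes tested), and for Fn1, which was lower (6.63%). Postn, at 7.54, 7.59, 7.63 and 7.03 in obese FB cells, differed by 1.68 ± 0.52 (adjusted p = 0.0561).

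Mgp, at 6.84, 6.64, 6.86 and 7.19 in obese FB cells, differed by 1.60 ± 0.49 (adjusted p = 0.0527), and Col4a2 by 1.31 ± 0.46 (adjusted p = 0.0848). Neither passed, and for both obese FBC arrays 2 and 3 were the high ones. Leaving out obese FBC array 1, which was low for 32 members, 4 members were called (all genes 872, from 999). Leaving out obese FBC array 2 or 3, 1 was (all genes 546 and 706). Leaving out obese FB array 1, 2 or 3, 1 was as well (all genes 1063, 656 and 774). Without obese FB array 4, the high-ratio array of this comparison, and the 2 lean ones, 7 members rose (Col3a1, Col15a1, Lum, Postn, Sparcl1, Cd34 and Gsn, by 0.71 to 1.80) and Fn1 fell, against 7.41% and 4.38% of all genes tested.

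Whether obesity acted differently on the members in FBC and FB cells was tested directly. The difference of the 2 obesity effects was positive for 33 of 35 members, with a median of 1.52 against 0.07 over all genes, and no member was called by limma, against 0.16% of all genes tested. An unadjusted p under 0.05 was reached by 16 of 35, and by 1576 of the 11908 genes tested. The lowest adjusted p was that of Fn1, -0.93 ± 0.20 (adjusted p = 0.0687), which with Pi16 had the only negative differences. The largest was Col5a2, 2.81 ± 1.17 (adjusted p = 0.317). Without lean FB array 4, 6 members were called, and 1 was without obese FB array 1, where 348 and 67 of all genes were. Without the 3 arrays of high actin ratio, Col15a1, Lum and Postn had positive differences that passed, of 1.73, 1.62 and 1.96, and Fn1 a negative one, of -0.92, 4 members where 2.58% of all genes were called.

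Markers of other cells that a sort could carry were read beside the set. Over all genes tested, 4.07% fell and 1.81% rose in obese FB cells, and 14.1% were called in obese against lean FBC cells. A list of 16 further fibroblast markers had 14 tested genes, of which 5 fell in obese FB cells and none rose, with a list median of -1.45. Efemp1, a fibulin, fell by 3.72, osteoglycin (Ogn) fell by 3.71 and the chemokine Cxcl12 fell by 2.68. The summed intensity of that list was 3046 to 14490 on lean FB, 2337 to 8856 on lean FBC, 1410 to 1922 on obese FB and 1820 to 5350 on obese FBC arrays. For the 35 members, Fn1 and Gsn included, the sums were 29040 to 64940, 26820 to 50250, 22590 to 26310 and 21850 to 49990. For the collagens alone they were 2236 to 13480, 1450 to 7666, 2883 to 3385 and 2790 to 13230. Of 10 tested mesothelial and epithelial markers 3 fell in obese FB cells, where Upk3b fell by 3.32, 3 fell in obese FBC cells, and their sums were 672 to 1258, 400 to 998, 197 to 528 and 250 to 720. Their part in the members' differences was not tested.

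All 10 macrophage markers were tested and their summed intensity was 49330 to 52520 on lean FB, 44740 to 53280 on lean FBC, 46760 to 55620 on obese FB and 59440 to 63850 on obese FBC arrays. Their mean centred log2 level ran from -0.16 to 0.32, apart from the 3 arrays of high actin ratio at -0.30 (lean FB), -0.41 (lean FBC) and -0.31 (obese FB). On array 4 of the lean groups, where the members were low, the macrophage markers Cd68 and Mertk, named after their values were seen, were low too. Cd68, a lysosomal protein, was at 10.96 on lean FB array 4 and at 12.12 to 12.30 on the other lean FB arrays, and at 11.17 against 12.04 to 12.46 in lean FBC cells. Mertk, a receptor for dying cells, was at 9.35 against 10.57 to 10.88 and at 9.10 against 10.55 to 10.71. Of the other markers, Adgre1 was the lowest of its group on both arrays. On lean FB array 4 Itgax, Fcgr1, Lyz2 and Cd14 were instead the highest of their group. On lean FBC array 4 Itgax and Csf1r were the highest, and Fcgr1, Lyz2, Cd14 and Aif1 the lowest. None of the 10 was called in obese against lean FB cells; in FBC cells 2 rose and 1 fell. Of 8 tested adipocyte markers 1 rose and 2 fell in obese FB cells. Their mean level was 0.48, 0.29, 0.44 and -0.59 on the lean FB arrays and -0.46, -0.46, -0.45 and -0.30 on the obese FB arrays, so array 4 was low there too. Their sums were 14890 to 23520, 19670 to 25660, 17340 to 22810 and 19770 to 22650 in the order of groups above. Of 7 endothelial markers 1 fell in obese FB cells, and their sums were 1895 to 5879, 4573 to 7644, 3316 to 6863 and 6535 to 6999. Fabp4, which stands in both the adipocyte and the endothelial list, ran from 10.60 to 12.82, and no other endothelial marker exceeded 8.47. Lpl, an adipocyte marker here, ran from 13.48 to 13.91. The endothelial sums thus mostly reflect Fabp4 and the adipocyte sums mostly Lpl and Fabp4, not the lists as a whole. Smooth muscle and pericyte, T and NK cell, B cell, and eosinophil and mast cell markers held 6, 2, 3 and 4 tested genes, and none was called in obese against lean FB cells. On lean FB array 4 the eosinophil and mast cell genes Siglecf and Ccr3, picked after seeing the values, stood at 11.98 and 9.43. Arrays 1 to 3 of that group had 7.98 to 8.53 and 5.31 to 5.86. Cpa3 and Kit, the other tested genes of that list, were instead the lowest of the group on array 4, at 6.55 and 5.20. Sums of that list were 743 to 4866, 430 to 1049, 185 to 955 and 284 to 423 in the order of groups above. The endothelial genes Pecam1 and Tie1, the smooth muscle and pericyte genes Cnn1 and Mcam, and the T cell genes Cd3d, Cd3e and Cd4 were below the array median on all 16 arrays. The part of these cells in the result was not tested.

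Genes that build, bind or signal through matrix were taken as 4 related lists. Their counts stand against the shares of all genes tested. These were 4.07% lower and 1.81% higher in obese FB cells, and 14.1% called in obese against lean FBC cells. For FBC against FB cells they were 0.193% called in lean and 8.39% in obese mice. Of 28 other matrix genes tested, 9 fell and none rose in obese FB cells, with a median of -1.22; the laminin chain Lamb1 fell by 2.90. Col5a1, Col12a1, Efemp1 and Ogn stand both in this list and among the further fibroblast markers. In obese FBC against lean FBC cells Col18a1 and Emilin1 rose by 1.88 and 1.86 and versican (Vcan) fell by 1.18. Vcan also fell in lean FBC against lean FB cells, by 1.73, and in obese FBC against obese FB cells it fell by 4.01; there thrombospondin 1 (Thbs1) fell by 3.86 and Ecm1 rose by 1.62.

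Of 11 tested genes that modify or secrete collagen, 2 fell in obese FB cells, Pcolce by 2.31 and the collagen chaperone Serpinh1 by 1.49, with a list median of -0.13. In FBC cells the prolyl and lysyl modification genes Crtap, Plod1 and Plod3 rose with obesity, by 1.48, 1.47 and 0.64, and Pcolce fell by 1.56. Crtap, Plod1 and P4hb were higher in obese FBC than obese FB cells, by 1.61, 1.55 and 0.74. Of 15 genes of TGFβ and PDGF signalling, 1 rose in obese FB cells, the receptor Tgfbr1, by 0.99. In obese FBC cells Tgfbr1 rose by 1.15 and Pdgfb by 0.80. Obese FBC exceeded obese FB cells in Ltbp3 by 1.26 and in Pdgfb by 0.85, and Smad3 was lower by 1.07.

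Matrix receptors and uptake genes made up the last list. Of 19 tested, 4 rose and 1 fell in obese FB cells. The integrin chains Itga6, Itgav and Itgb5 rose by 1.87, 1.37 and 1.09, and the collagen receptor Ddr2, a fibroblast gene, fell by 2.10. In obese FBC cells Itgb5, Itga6 and Itgav rose by 2.11, 2.10 and 1.08, and Ddr1 fell by 1.44. Between obese FBC and FB cells Sdc1 was higher by 1.41 and Itga4 lower by 1.07. The scores of this list stayed between -0.12 and 0.22 on all 16 arrays. In the test that sets the obesity effect of FBC cells against that of FB cells, no gene of the 4 lists was called.

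Other probe sets of the members mostly moved as their brightest one did. Of 24 further tested probe sets of 16 members, 22 had the same sign in obese against lean FB cells, 18 in FBC cells, 21 in lean FBC against FB and 21 in obese FBC against FB cells. Gsn had 4 of them, which differed by -1.30, -0.70, -0.77 and -0.17 in FB cells, and 1 of these was called with all probe sets tested singly (adjusted p = 0.0457).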

How the data were processed

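The authors deposited 1 intensity per probe set, unlogged. Per the submitters' processing notes the software was Affymetrix Expression Console; its version and build and how probes were summarized are each not given in the sources used here. The 2% trimmed mean was 250 on all 16 arrays. Values were taken as log2(intensity + 16), which understates changes of dim genes, and quantile-normalized, since array medians ran from 5.69 to 6.06. Of 45101 probe sets 34945 carried 1 symbol in the platform annotation, 932 several, 9160 none, and 64 were controls. The probe set of highest mean stood for a gene. One limma model of the 4 groups, fitted to all genes tested, gave the 5 comparisons, on 12 residual degrees of freedom (16.5 after moderation), with Benjamini-Hochberg adjustment over 11908 genes. The code was tested on simulated data. limma 3.58.1 ran in R 4.3.3, and figures were drawn with matplotlib 3.10.9 in Python 3.11.15.

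The members, marker lists, related lists and tests were chosen with earlier results of these data known. Array values are given for members called in any comparison and for Dcn, Col1a1, Col3a1, Fn1, Gsn and Sparc, other members by their difference or range; a related list names up to 3 called genes per comparison, the largest first. Array values of Postn, Col14a1 and Pi16 were added after they were seen. Precision is limited by the number of arrays. The labels do not say that each array is another mouse, and a p-value reflects only the spread between the samples. The series text says that FB and FBC cells came from 4 lean and 4 obese mice, without tying array numbers to mice. Residuals of lean FB and FBC arrays with the same number correlated at 0.14, 0.23, 0.30 and 0.60 (Pearson, across genes). Each was over 0.1, and lean numbers were taken to pair the samples, but these values cannot show pairing. Residuals were centred within each group, so an array 4 that departs alike in both groups moves arrays 1 to 3 alike too. Arrays of unlike number were not correlated. The 0.60 is that of the lean arrays numbered 4, both of high actin ratio, and the part of that ratio in it was not tested. Residuals of obese arrays correlated at 0.31, 0.03, -0.03 and -0.14, and obese numbers were not taken so. The main model used no pairing, and the paired alternatives used the numbers of lean and obese arrays alike. Alternatives were the filter, probe set averaging, normalization, pseudocount, variance model, array weights, groups fitted, pairing and each array left out; leaving out or modelling the high actin ratio was added after seeing the data.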

Additional observations from a re-analysis of the deposited data

Results flagged for a closer look

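Each member was examined in each group of 4 arrays for a highest or lowest array that lay far from the other 3, 140 sets in all, of which 26 were marked. Chance marks about 1 in 20 such sets, and the sets share arrays. Lean FB array 4 was the low array in 14 and lean FBC array 4 in 9, both arrays with a high actin ratio; its part was not tested.

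On lean FB array 4 the collagens Col1a2, Col3a1, Col4a1, Col6a3 and Col14a1 were at 8.17, 9.03, 8.34, 7.02 and 7.92, where the other 3 arrays ran from 11.03 to 11.38, 11.45 to 11.92, 10.34 to 10.62, 9.09 to 9.41 and 9.44 to 9.74. The proteoglycans Dcn and Bgn were at 10.56 and 7.19, and the glycoproteins Mfap5 and Postn at 5.89 and 5.99. The crosslinking enzymes Lox and Loxl1 were at 4.85 and 6.26, and the secreted proteins Sparc, Sparcl1 and Fstl1 at 7.64, 5.76 and 7.59, each below the other lean FB arrays.

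On lean FBC array 4 the collagens Col3a1, Col5a2, Col6a2 and Col6a3 were at 8.24, 5.37, 7.60 and 6.23, where the other arrays of the group were at 8.33 or more. Dcn was at 9.51 against 12.41 to 12.96, Dpt at 7.11 against 9.59 to 9.98 and Igfbp4 at 9.64 against 12.00 to 12.46. The surface genes Cd34 and Dpep1 were at 5.77 and 8.16.

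In obese FB cells, where the members were steady, 3 smaller gaps were marked: Col5a2 at 7.04 on array 3 against 7.21 to 7.25, Postn at 7.03 on array 4 against 7.54 to 7.63, and Fstl1 at 6.79 on array 1 against 7.64 to 7.67.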

How the results depend on the processing

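No difference of a named call changed sign under any alternative that was run. In obese against lean FB cells the count of 7 called members became 31 with array weights, 29 without the 3 arrays of high actin ratio and 12 with that ratio as a covariate. The count over all genes went from 701 to 3987, 2032 and 1159. With 1 array left out the member count ran from 1 to 25 (all genes 327 to 1506). In FBC cells the count of 2 became 13, 9 and, with only the groups compared, 1, where all genes went from 1675 to 4115, 2536 and 1498. With 1 array left out it ran from 1 to 3 (all genes 1035 to 1555), and it was 1 without obese FBC array 2 or 3. In lean FBC against FB cells the count of 0 became 3 with array weights (all genes 23 to 1324). It stayed at 0 with each array left out (all genes 8 to 25). By unadjusted p it was 1, where 976 of all genes were under 0.05. In obese FBC against FB cells the count of 2 became 1 without the filter, with probe sets averaged, with a pseudocount of 1 and with the ratio as a covariate. There all genes went from 999 to 829, 918, 895 and 689. It became 7 with array weights and 8 without the 3 arrays (all genes 2202 and 1373). With 1 array left out it ran from 1 to 4 (all genes 546 to 1063). For the difference of the obesity effects the count of 0 became 16 with array weights, 4 without the 3 arrays and 1 with trend and robust settings (all genes 1536, 300 and 30, from 19). With 1 array left out it ran from 0 to 6 (all genes 2 to 348). Among single calls in FB cells, Dcn and Dpt also lost theirs without the filter and with a pseudocount of 1, and Dpt and Gsn with only the groups compared. The cause was not tested.

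With the replicate block, the count was 0 in lean mice, 16 in obese mice and 6 for the difference of effects, where all genes went from 23 to 51, 999 to 1655 and 19 to 230. With mouse as a random block the count was 0, 5 and 1, where 74, 1746 and 158 of all genes were called. Obese numbers did not show pairing in the residuals, and the lean residuals cannot settle it.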
